A study of Homo sapiens with 16 samples.

Results

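The comparison was between Ccd18-Co fibroblasts that received 3 pulses of a cytokine mixture followed by GSK-J4 and cells of the same line that never received cytokines, and it asked which expression changes remained after GSK-J4 and which were not there before it. Ccd18-Co is an established fibroblast line from human colon, used up to passage 20. Libraries were chosen by their labels alone: the 4 GSK-J4 libraries (replicates 21 to 24) and the 4 unstimulated libraries (replicates 1 to 4), 8 of the 16 RNA-seq libraries of the series. A pulse lasted 72 h and was followed by 96 h without cytokines. It combined 10 ng/ml of each of IL-17A, TNF and OSM with IL-1B. For IL-1B, the labels and the study's figure legend for this experiment give 0.1 ng/ml, and its methods text gives a lower concentration. After 1 week of rest the pulsed cells were given GSK-J4 for 5 days, at 10 µM by the labels, and RNA was taken 2 weeks later. For its secretion assay, the study's text names a lower concentration of GSK-J4. The unstimulated cells received no cytokine. Their sample titles give DMSO, the solvent of the compound, while their columns in the count table say none, so whether they were matched for solvent is not certain. The 4 vehicle libraries (replicates 13 to 16), from cells pulsed in the same way and then given DMSO, served to show whether a level had moved under GSK-J4. In no library did cells receive GSK-J4 without earlier pulses, so an effect of the compound alone and an effect that needs the pulses cannot be told apart. The study's text calls the replicates of its bulk RNA-seq biological but counts fewer per group than the 4 in the labels, and the labels do not say how the libraries of a group relate, so p-values measure the spread between these libraries.

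GSK-J4 is a cell-permeable inhibitor of KDM6A and KDM6B, the enzymes that take methyl groups off H3K27, a histone mark laid down by the Polycomb complex at silenced genes. Inflammatory fibroblasts (IFs) of the gut are known for secreting chemokines that draw in neutrophils and enzymes that cut the extracellular matrix. Contractile stroma (CS), the smooth muscle-like cells of fibrotic bowel wall, makes smooth muscle myosin, actin-binding proteins and pericyte genes.

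Libraries held 16655777 to 17472686 estimated counts with GSK-J4 and 17521336 to 19476420 in the unstimulated group, and no pair of libraries within a group agreed as closely as counting error alone would give. Fibroblast markers (10 genes, among them COL1A1, COL3A1, DCN and PDGFRB) summed to 566600 to 606300 normalized counts per GSK-J4 library and 512900 to 540400 per unstimulated library. Of the markers of other cells, 6 of 9 epithelial, 5 of 7 endothelial, 7 of 9 immune and 5 of 6 glial and neuronal genes averaged under 10 normalized counts over the 8 libraries, EPCAM, PECAM1, PTPRC and SOX10 among them, and so did the muscle intermediate filament gene DES. None of the tested epithelial, endothelial, immune or glial markers was called. In bulk RNA, more cells of a kind and more RNA per cell cannot be told apart. KDM6A and KDM6B themselves, whose products GSK-J4 inhibits, were measured at 573, 511, 576 and 594 and at 1195, 1157, 1123 and 1214 normalized counts in the GSK-J4 libraries, within the ranges 456 to 613 and 1031 to 1369 of the unstimulated ones, and neither was called (log2 fold changes 0.06 ± 0.10 and -0.01 ± 0.08).

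A gene was called where its DESeq2 adjusted p was under 0.05, and log2 fold changes are given ± their standard error. Of 15945 genes tested between GSK-J4 and unstimulated cells, 938 (5.88%) were called: 537 (3.37%) were higher with GSK-J4 and 401 (2.51%) were lower. Most differences were small: 548 of the 938 lay under 0.5 on the log2 scale, 307 between 0.5 and 1.5, and 83 (0.521%) beyond 1.5. The large ones were nearly all rises, 75 (0.47%) higher against 8 (0.0502%) lower. Among all genes tested, 1968 (12.3%) had libraries of both groups that did not overlap, and 868 of the 938 called genes were among them. The median log2 fold change over all genes tested was -0.00755.

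**Figure D1:**
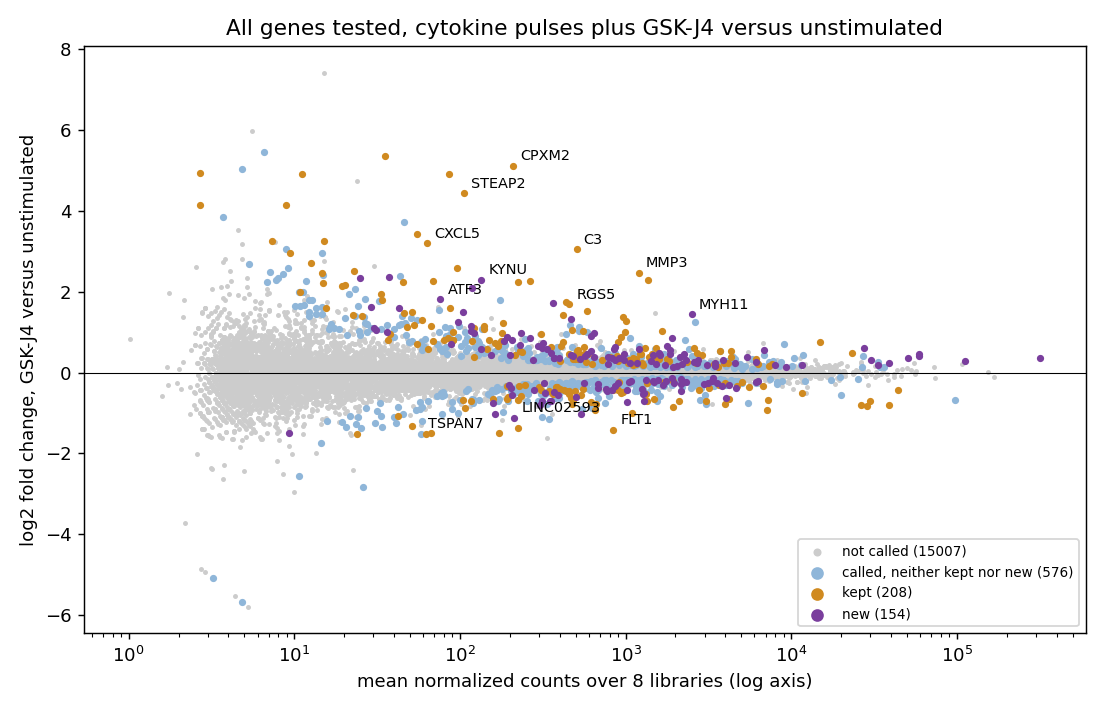
Log2 fold change between GSK-J4 and unstimulated libraries (y axis) against mean normalized counts over the 8 libraries (x axis, log scale) for the 15945 genes tested. Grey points were not called, orange points are the 208 kept changes, purple points the 154 new changes, and light blue points the other called genes. Among genes with at least 50 normalized counts, most of the largest rises, such as CPXM2, STEAP2 and C3, are kept changes.

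The vehicle libraries sorted the 938 genes by what was there before GSK-J4. Cytokine pulses followed by DMSO left 283 genes (1.77%) called against unstimulated cells, 180 higher and 103 lower, and GSK-J4 against vehicle called 249 of 13858 genes tested (1.8%). A change is named kept where the gene was called in the same direction with vehicle and with GSK-J4, new where it was called with GSK-J4 against unstimulated and, in the same direction, against vehicle, but not with vehicle, and lost where it was called with vehicle, not with GSK-J4, and GSK-J4 against vehicle was called in the opposite direction. By these rules 208 changes were kept, which is 73.5% of the 283 vehicle calls and 22.2% of the 938 GSK-J4 calls. The share was 75% of the vehicle rises (135 genes) and 70.9% of the vehicle falls (73 genes). Another 154 changes were new (97 higher, 57 lower), 16.4% of the GSK-J4 calls, and 11 were lost. For 575 of the 938 (61.3%), 305 higher and 270 lower, neither the vehicle call nor the difference from vehicle passed the test, so they are neither kept nor new. A further 63 vehicle calls were no longer called with GSK-J4, with no called difference from vehicle. Both contrasts use the same unstimulated libraries, so these counts describe the 3 groups and no overlap was tested. The counts moved with the test and with single libraries: 130 to 342 changes were kept, 69 to 241 were new and 4 to 27 were lost over the 19 alternatives tried.

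Of the 12 largest rises among genes with at least 50 normalized counts, all but KYNU were kept changes. CPXM2, which encodes a carboxypeptidase-like secreted protein (ENSG00000121898, hg38 chr10:123706207-123940267), had 404, 343, 474 and 409 normalized counts in the 4 GSK-J4 libraries and 11.6, 10.01, 9.77 and 15.6 in the unstimulated ones. The groups lay far apart, by 5.12 ± 0.23 on the log2 scale (DESeq2 adjusted p = 6.72e-103), and the vehicle libraries, at 284 to 373, overlapped those with GSK-J4. NRCAM, a neuronal cell adhesion molecule, had 149.5, 178, 151 and 189 normalized counts with GSK-J4 and 2.9, 6.01, 6.21 and 6.83 without stimulation, a log2 fold change of 4.92 ± 0.33. Vehicle libraries spanned 126 to 188 and overlapped those with GSK-J4. GCGR, the glucagon receptor gene, was at 99.7, 79.9, 119 and 104 against 8.69, 8.01, 13.3 and 6.83 normalized counts (3.44 ± 0.30 log2), and GABRA2, a subunit of the GABA-A receptor, at 186, 140.3, 197 and 136 against 38.6, 20.02, 22.2 and 29.3 (2.58 ± 0.28 log2). Both were also high in vehicle libraries, which overlapped the GSK-J4 ones and where the log2 fold changes against unstimulated cells were 3.82 ± 0.30 and 2.93 ± 0.28. MME, the membrane endopeptidase neprilysin, had 2129.8, 2449, 2275 and 2188 normalized counts with GSK-J4 and 706, 408, 365 and 357 in unstimulated libraries. Even the highest unstimulated library, replicate 1, lay well under the lowest GSK-J4 one. AK4, a mitochondrial adenylate kinase, rose by 2.26 ± 0.23. The metalloreductase STEAP2 had 184, 195, 213 and 216 against 6.76, 8.01, 10.7 and 11.7 normalized counts (4.44 ± 0.25 log2), and its neighbour on chromosome 7, STEAP1, 53.9, 82.9, 80.3 and 57.6 against 4.83, 1.001, 0.888 and 0 (5.36 ± 0.59 log2). The 2 genes lie side by side (STEAP1 at chr7:90154456-90164829, STEAP2 at chr7:90167590-90238137, hg38). Of the kept named genes in this paragraph, CPXM2, NRCAM, GCGR, MME, AK4, STEAP1, STEAP2 and GABRA2 were kept in all 19 alternatives. CA12, a carbonic anhydrase with 389.5, 597, 415 and 345 against 130.3, 91.1, 82.6 and 61.5 normalized counts, was kept in 12 of 19, and its rise with GSK-J4 was called in each of the 15 that bear on it.

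Most of the IF program stayed up. Of the 11 genes that the study displays for this state, 7 were called higher and none lower, against 3.37% of all genes tested that were called higher, and the median log2 fold change was 0.566. The list was drawn by the study in part from these libraries and is not independent evidence of its direction. With vehicle, the same 7 were called, and GSK-J4 against vehicle called none of the 11. CXCL8, the chemokine also known as interleukin 8, had 259, 415, 454 and 350.1 normalized counts with GSK-J4 and 85.9, 85.1, 63.9 and 75.2 in unstimulated libraries. The groups did not overlap (2.25 ± 0.22 log2, DESeq2 adjusted p = 3.76e-21), and vehicle libraries spanned 287 to 609. CXCL5, a further ligand of the neutrophil receptor CXCR2, had 112, 95.2, 136 and 115 against 21.2, 10.01, 7.99 and 10.7 (3.20 ± 0.30 log2, DESeq2 adjusted p = 7.15e-24). Stromelysin MMP3 had 1881, 2513, 1989 and 1765 against 538, 369, 279.6 and 277 normalized counts (2.48 ± 0.36 log2), and the collagenase MMP1 836, 1077, 787 and 769 against 376, 346, 225 and 251 (1.53 ± 0.31 log2). All 4 GSK-J4 values of MMP3 lay above the vehicle range of 905 to 1498, yet its difference from vehicle was not called (0.88 ± 0.36 log2, DESeq2 adjusted p = 0.3). CXCL1 and CXCL3 stayed up by 0.49 ± 0.13 and 0.77 ± 0.21, and COL7A1, anchoring fibril collagen, by 0.53 ± 0.11. Those 7 calls were kept in all 19 alternatives, except COL7A1, which was kept in 14 while its rise with GSK-J4 was called in each of the 15 that bear on it. PDPN, CXCL2, FAP and THY1, the remaining members, had log2 fold changes of 0.57 ± 0.23, 0.42 ± 0.32, 0.17 ± 0.24 and 0.15 ± 0.12 and were not called.

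**Figure D2:**
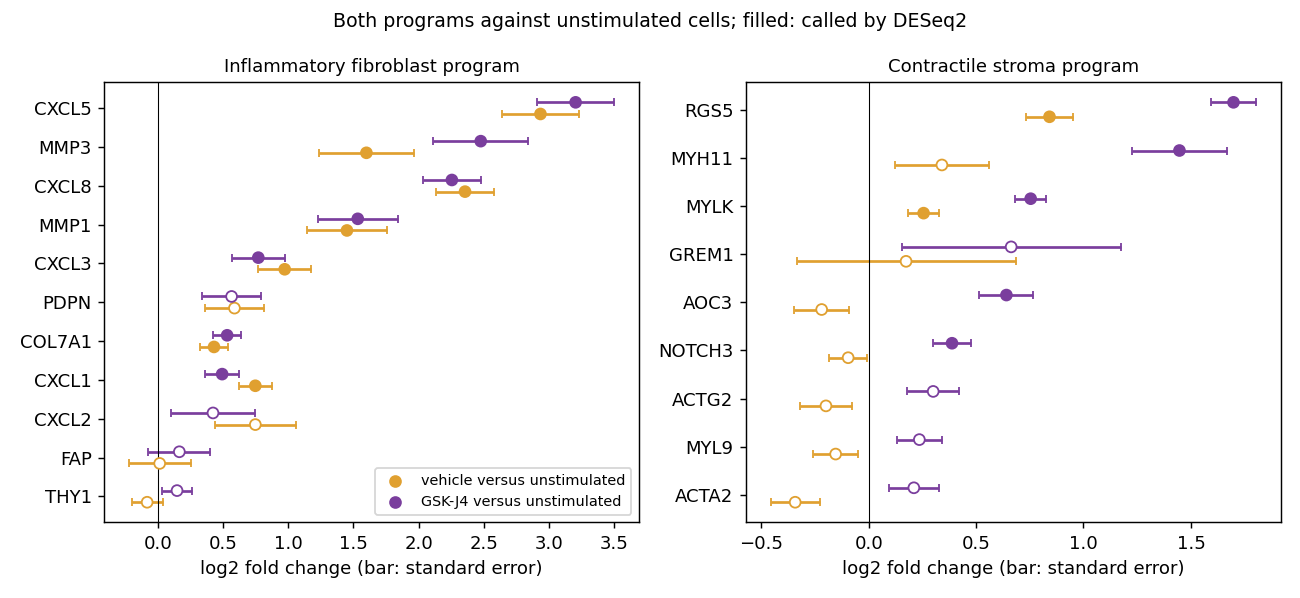
Log2 fold change against unstimulated cells (x axis, bars are standard errors) for the 11 genes of the inflammatory fibroblast program (left) and the 9 genes of the contractile stroma program (right), with vehicle in yellow and GSK-J4 in purple. Filled points were called by DESeq2: on the left both colours lie close together except for MMP3 (2.48 with GSK-J4, 1.60 with vehicle), and on the right the purple points all lie to the right of the yellow ones.

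Most neutrophil chemokines rose. Of 8 chemokine and colony factor genes, 6 could be tested and 5 were called higher (CXCL1, CXCL3, CXCL5, CXCL6 and CXCL8, all on chromosome 4), against 3.37% of all genes tested, with a median log2 fold change of 1.07 over the 6. CXCL6 had 1332, 1289, 1572 and 1369 normalized counts with GSK-J4 and 683, 528, 404 and 534 in unstimulated libraries (1.37 ± 0.16 log2, DESeq2 adjusted p = 1.11e-14), while vehicle libraries spanned 1330.1 to 2257. CXCL1 and CXCL3, and likewise CXCL5 and CXCL6, are close copies, so reads may be split between members of a pair. Of the other chemokines, monocyte, eosinophil and homeostatic, 1 of 9 tested was called (5.88% of all genes): CXCL12, at 4033, 5144, 4331 and 4074 against 3399.9, 2885, 2809 and 3004 (0.54 ± 0.13 log2). The monocyte chemokine CCL2 lay at 0.01 ± 0.14 and was not called.

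Promoters of 4 of the 5 called neutrophil chemokines are shown because their genes rose together and hold the same motif. RefSeq windows of 300 bases (GRCh38.p14, 250 before and 50 after the start) were searched on both strands for the NF-kB motif, whose consensus is the site of the RELA and NFKB1 dimers, and 4 of the 5 held it, against 11.3% of all 35116 promoter windows of the same length. The windows of CXCL1 and CXCL3, and likewise those of CXCL5 and CXCL6, are near copies of each other, so the 4 matches are not independent. Other motifs were searched in the same windows, and each was in at most 1 of these 5 genes. The 150 bases before the start are given 5′ to 3′ on the gene's strand, with the motif, read on both strands, in capitals.
CXCL1 (chr4:73869243-73869392, plus strand): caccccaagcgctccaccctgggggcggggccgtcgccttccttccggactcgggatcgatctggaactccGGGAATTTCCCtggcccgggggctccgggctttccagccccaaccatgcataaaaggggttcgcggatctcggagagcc
CXCL3 (chr4:74038690-74038839, minus strand): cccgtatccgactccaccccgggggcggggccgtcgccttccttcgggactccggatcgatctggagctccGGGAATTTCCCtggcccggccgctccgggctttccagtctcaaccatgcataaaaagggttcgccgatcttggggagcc
CXCL5 (chr4:73998678-73998827, minus strand): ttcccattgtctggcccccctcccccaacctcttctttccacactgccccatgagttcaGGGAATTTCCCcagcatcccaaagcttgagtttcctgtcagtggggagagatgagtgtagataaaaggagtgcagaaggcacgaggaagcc
CXCL6 (chr4:73836528-73836677, plus strand): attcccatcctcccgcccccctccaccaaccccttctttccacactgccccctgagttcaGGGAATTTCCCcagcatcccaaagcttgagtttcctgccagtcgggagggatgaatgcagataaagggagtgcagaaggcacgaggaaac
The capitals began 79 bases before the start in CXCL1 and CXCL3, 91 in CXCL5 and 90 in CXCL6. The NF-kB motif was searched only as GGGRNNYYCC (R is A or G, Y is C or T, N is any base). CXCL8 held no match to this pattern in its window, which does not show that it lacks an NF-kB site. It held the AP-1 motif TGANTCA (7.71% of all windows). A match is a description of the letters, and binding was not measured here.

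The NF-kB list itself, subunits, inhibitors and targets, had 2 of 18 tested members called, both higher (11.1%, against 5.88% of all genes called). TNFAIP3, which encodes the NF-kB inhibitor A20, had a log2 fold change of 0.52 ± 0.15, a call that was lost without unstimulated replicate 4 (0.422) and without GSK-J4 replicate 23 (0.464). The subunit NFKB1 lay at -0.03 ± 0.05 and the inhibitor NFKBIA at 0.14 ± 0.11, neither called. Of the IL-6 family and its feedback genes, 2 of 14 were called higher and 1 lower (3.37% and 2.51% of all genes): the oncostatin M receptor OSMR was a small kept rise (0.21 ± 0.04), IL6R fell (-0.26 ± 0.06), and LIF had 133, 151, 106 and 85.9 against 55.97, 66.1, 63.9 and 36.1 normalized counts (1.10 ± 0.29 log2), a call lost without GSK-J4 replicate 22 (0.964). IL6 and IL11 were not called (1.97 ± 0.82 and 0.18 ± 0.13).

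Kept changes split by whether GSK-J4 moved the level. For 186 of the 208 (122 higher, 64 lower) the difference from vehicle was not called, which does not show that the levels were equal. GSK-J4 moved 21 further from unstimulated cells (12 higher, 9 lower) and 1 back. The 9 lower were FLT1, ZNF704 and nuclear copies of mitochondrial genes, which are treated below (MTATP8P1, MTATP8P2, MTCO3P12, MTND2P28, MTND3P25, MTND4LP1 and MTND4P12). Those copies were kept and moved further in only 7 to 12 of 19 alternatives. C3, the central complement component, stood out among those moved further. It had 734, 1157, 908 and 811 normalized counts with GSK-J4, 473, 337, 351 and 602 with vehicle and 89.8, 133, 122 and 89.8 in unstimulated libraries, 3 ranges that did not overlap. The log2 fold changes were 3.06 ± 0.19 against unstimulated (DESeq2 adjusted p = 1.8e-54) and 1.03 ± 0.18 against vehicle (DESeq2 adjusted p = 8.04e-06). CDH13, a cadherin without a transmembrane part, had 577, 639.9, 619 and 594 normalized counts with GSK-J4, 369, 389.99, 380.04 and 397 with vehicle and 240.3, 223, 218 and 229 unstimulated. The same stepwise order held for COL8A1, a short-chain collagen (740.4, 763, 738 and 732, then 534, 566, 484 and 477, then 322, 382, 389 and 358), and for the transferrin receptor TFRC (0.61 ± 0.06 log2 against unstimulated and 0.32 ± 0.06 against vehicle). C3, CDH13, COL8A1, TFRC and the pericyte gene RGS5 were kept and moved further in all 19 alternatives. For STEAP2 the step beyond vehicle (0.42 ± 0.12) was called in 11 of 19, for the basement membrane gene NID2 (0.31 ± 0.09) in 12, and for the VEGF receptor FLT1 in 8. TGFB2, a TGF-beta ligand, was the single gene moved back: 162, 168, 130.04 and 137 normalized counts with GSK-J4 lay between 199 to 229 with vehicle and 74.3 to 98.6 without stimulation (-0.53 ± 0.12 against vehicle, DESeq2 adjusted p = 0.00132), in all 19 alternatives.

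**Figure D3:**
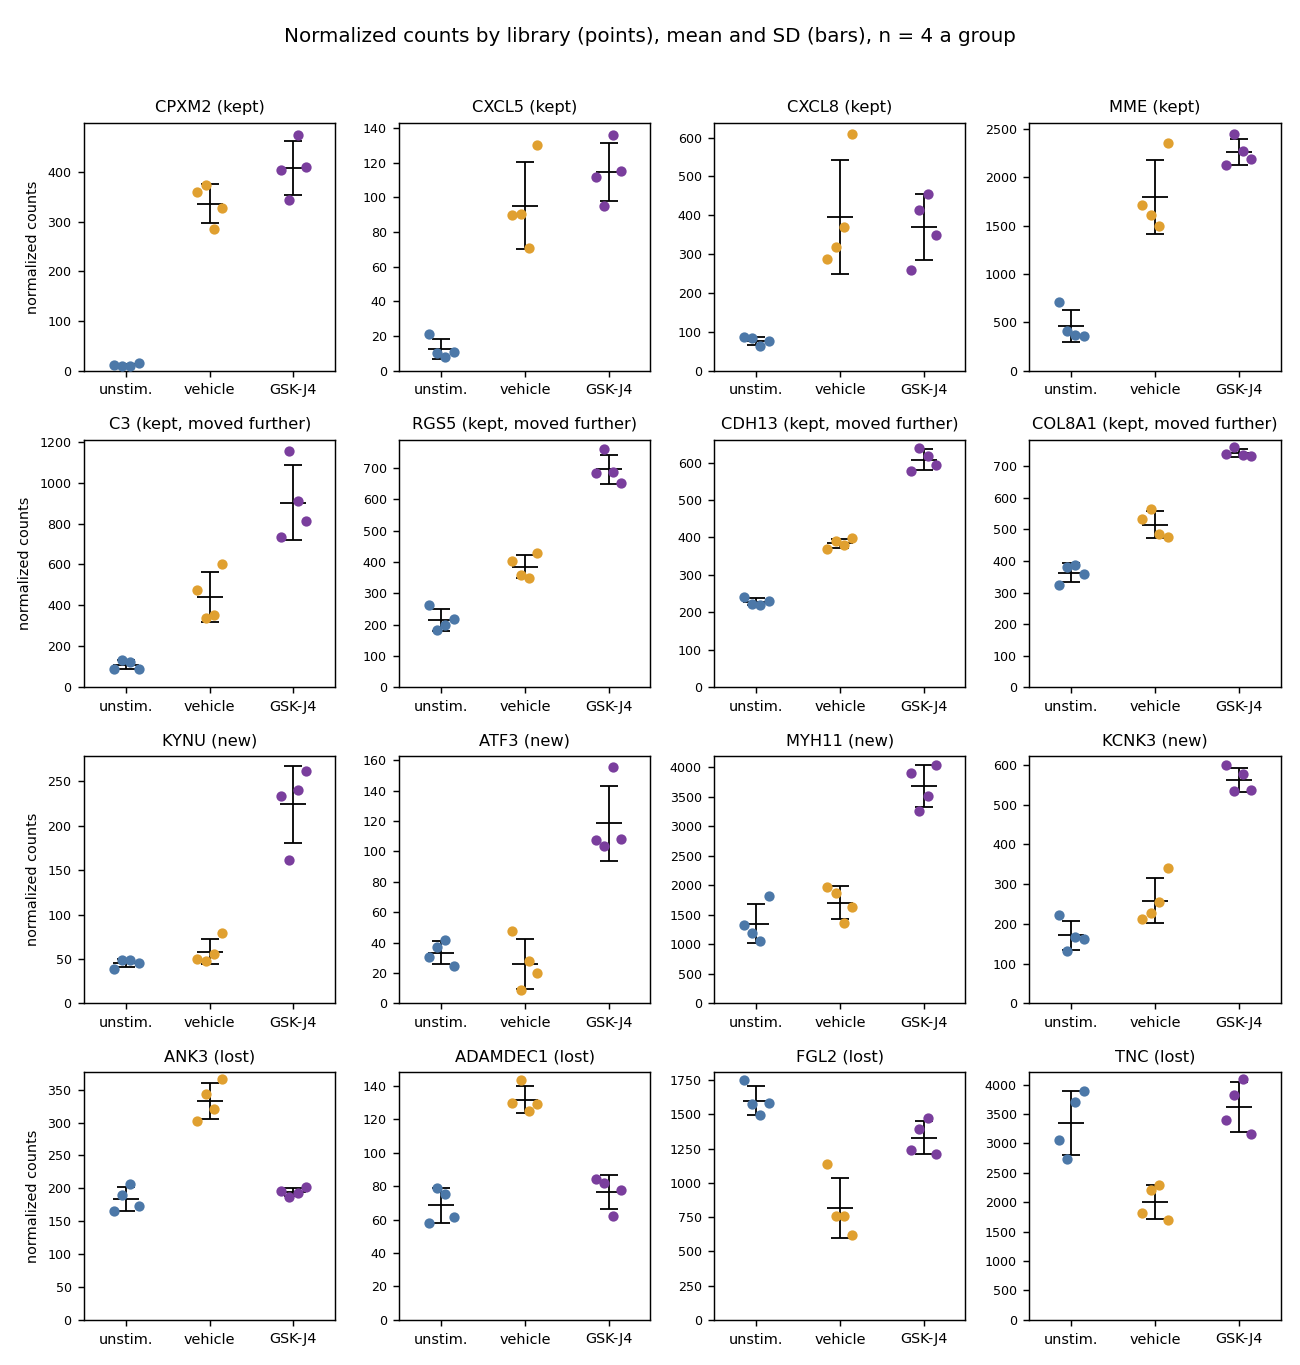
Normalized counts of 16 genes in the 4 unstimulated (blue), 4 vehicle (yellow) and 4 GSK-J4 (purple) libraries, each point 1 library, with mean and SD as bars and every y axis starting at 0. In the top row vehicle and GSK-J4 lie together above unstimulated, in the second row GSK-J4 lies above vehicle, in the third row GSK-J4 lies above both other groups, and in the bottom row GSK-J4 lies nearer to unstimulated than vehicle does.

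Falls were smaller than rises. FLT1 had 454, 391, 520.2 and 479 normalized counts with GSK-J4 and 1061, 1284, 1336 and 1233 in unstimulated libraries (-1.41 ± 0.15 log2, DESeq2 adjusted p = 1.34e-17), with vehicle at 484 to 800.1. MFAP5, a microfibril protein and marker of universal fibroblasts, had 61.02, 15.4, 23.4 and 29.3 against 84.9, 92.1, 82.6 and 110.3 normalized counts (-1.52 ± 0.40 log2). GSK-J4 replicate 21 lay highest in that group and still under every unstimulated library. TMEM255A, a membrane protein gene, had 86.5, 95.2, 101 and 78.6 against 168, 278, 339 and 230.4 (-1.49 ± 0.29 log2), and the transcription factor IRF8 37.6, 25.6, 26.4 and 28.3 against 48.3, 86.1, 75.5 and 82.99 (-1.31 ± 0.32 log2). Vehicle libraries overlapped the GSK-J4 ones for both, and both were kept in all 19 alternatives. NPR3, the natriuretic peptide clearance receptor, fell by 1.38 ± 0.19 on the log2 scale and the zinc finger gene ZNF704 by 1.5 ± 0.19. TSPAN7, a tetraspanin, fell by 1.52 ± 0.31 and was called with neither vehicle (-0.69 ± 0.30) nor against it (-0.83 ± 0.32). Among the 12 largest falls, 3 calls were lost without single libraries. CHRDL1, a BMP antagonist (-1.14 ± 0.38), lost its call without any 1 of the 4 GSK-J4 libraries (-1.21 to -1.06) and without unstimulated replicates 2, 3 or 4 (-1.14, -0.958 and -1.18). The netrin receptor UNC5C (-1.09 ± 0.32) lost it without unstimulated replicate 3 (-1.06) and GSK-J4 replicates 21 (-0.939) or 23 (-1.02). ALKAL1, a ligand of the receptor ALK (-1.04 ± 0.32), lost it without unstimulated replicates 2, 3 or 4 (-1.03, -0.934 and -0.978) and GSK-J4 replicates 22 (-0.822) or 23 (-1.07).

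New changes were led by KYNU, kynureninase of the tryptophan breakdown pathway (ENSG00000115919, hg38 chr2:142877657-143055833). It had 233, 162, 239.8 and 261 normalized counts in the GSK-J4 libraries, 38.6, 49.1, 48.8 and 45.9 in the unstimulated ones and 50.4, 47.9, 55.9 and 79.3 in the vehicle ones. The lowest GSK-J4 library lay above the highest of both other groups. The log2 fold changes were 2.30 ± 0.20 against unstimulated (DESeq2 adjusted p = 1.17e-26) and 1.94 ± 0.20 against vehicle (DESeq2 adjusted p = 5.68e-19), while vehicle against unstimulated gave 0.36 ± 0.22. ATF3, a stress-induced transcription factor of the AP-1 and CREB group, had 108, 103, 155 and 108 normalized counts against 30.9, 37.04, 41.7 and 24.4, with vehicle at 8.62 to 47.6 (1.82 ± 0.35 log2, DESeq2 adjusted p = 1.71e-05). Replicate 23 was the highest of the GSK-J4 libraries, and the other 3 also lay clear of both groups. KCNK3, a two-pore potassium channel found in pericytes and vascular muscle, had 599, 536, 577 and 537 against 223, 133, 166 and 162 (1.72 ± 0.24 log2), and was new in 18 of 19 alternatives, the exception being the fit with 2 surrogate variables. EPB41, a membrane skeleton protein, had 159.7, 161, 152 and 292 against 41.5, 46.05, 47.9 and 42.96 (2.10 ± 0.51 log2). Its GSK-J4 replicate 24 was far above the other 3, and without that replicate, or without vehicle replicate 14, EPB41 was not new. The cholesterol exporter ABCG1 had 185, 128, 153 and 152 against 45.4, 68.1, 69.2 and 36.1 (1.5 ± 0.23 log2), the tight junction gene CLDN11 568, 944, 686 and 495 against 330.1, 287, 192 and 266 (1.33 ± 0.23 log2), the hyaluronan synthase HAS3 145, 135, 122 and 144 against 65.6, 55.1, 42.6 and 66.4 (1.25 ± 0.25 log2) and the adhesion receptor ADGRG1 168, 169.97, 157 and 133 against 91.7, 67.1, 72.8 and 76.2 (1.03 ± 0.19 log2). These 4, with KYNU and ATF3, were new in all 19 alternatives.

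New falls were again smaller. GDF7, a BMP ligand, had 365, 304, 388 and 365 normalized counts with GSK-J4 and 511, 744, 879.8 and 742 in unstimulated libraries, with vehicle at 542 to 636 (-1.02 ± 0.14 log2, DESeq2 adjusted p = 3.11e-11). It lay under both other groups in every GSK-J4 library, and was new in 18 of 19 alternatives, all but the one without unstimulated replicate 1. ATRNL1, an attractin relative, had 142, 87.03, 103 and 99.6 against 210.4, 176, 239 and 253 (-1.03 ± 0.16 log2), and the prostaglandin E receptor PTGER4 244, 234, 249.9 and 224 against 449.7, 351, 363 and 399 (-0.71 ± 0.16 log2). The sodium channel gene SCN3A fell by 0.63 ± 0.10. ATRNL1, PTGER4 and SCN3A were new in all 19 alternatives. Also new by the rule were LINC02593 (-1.12 ± 0.15, 16 of 19), LDLRAD4, a negative regulator of TGF-beta signalling (-0.81 ± 0.19, 15 of 19), the cadherin CDH6 (-0.71 ± 0.14, 17 of 19) and SLIT3 (-0.70 ± 0.16, 8 of 19). So were MTCO1P11 (-0.75 ± 0.13) and MTCO1P53 (-0.74 ± 0.10), nuclear copies of mitochondrial genes treated below, in all 19 alternatives.

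Part of the CS program rose with GSK-J4. Of 9 genes that the study displays for this state, also in part on these libraries, 5 were called higher against unstimulated cells and none lower (3.37% of all genes were called higher), with a median of 0.641. With vehicle 2 were called higher and the median was -0.0954, and 8 of the 9 were called higher with GSK-J4 than with vehicle. MYH11, smooth muscle myosin heavy chain, had 3896, 3253, 3513 and 4033 normalized counts with GSK-J4, 1975, 1862, 1359.9 and 1633 with vehicle and 1333, 1196, 1053 and 1810.1 in unstimulated libraries. The GSK-J4 libraries stood apart from both (1.45 ± 0.22 log2 against unstimulated, DESeq2 adjusted p = 1.13e-08). RGS5, a regulator of G protein signalling typical of pericytes, had 686, 762, 689 and 652 with GSK-J4, 349 to 429 with vehicle and 263, 182, 197 and 217 unstimulated (1.70 ± 0.11 log2). AOC3, a vascular amine oxidase, had 959, 1161, 1158 and 912 against 589, 719.8, 632 and 747 (0.64 ± 0.13 log2), and the Notch receptor NOTCH3 984, 839, 869 and 875 against 616, 682, 705 and 722 (0.39 ± 0.09 log2). MYLK, myosin light chain kinase, had 18682, 18463, 19116 and 18509 against 11017, 11211, 10328 and 11777 (0.75 ± 0.07 log2). MYH11, AOC3 and NOTCH3 were new, and RGS5 kept and moved further, in all 19 alternatives, whereas MYLK passed as kept in 10 and its rise with GSK-J4 was called in each of the 15 that bear on it. The actins and the light chain gene MYL9 did not pass against unstimulated cells. ACTA2, smooth muscle actin, was at 20980, 21660, 20658 and 19658 with GSK-J4, 13242 to 16088 with vehicle and 12838 to 21658 unstimulated, so that the GSK-J4 and unstimulated libraries overlapped (0.21 ± 0.11 log2) and the GSK-J4 and vehicle ones did not (0.55 ± 0.11 log2, DESeq2 adjusted p = 0.000395). ACTG2 (0.30 ± 0.12 against unstimulated and 0.50 ± 0.12 against vehicle) and MYL9 (0.24 ± 0.11 and 0.39 ± 0.11) had the same pattern. GREM1 varied most within groups and was called in neither contrast (0.66 ± 0.51 and 0.49 ± 0.51).

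Of 19 other smooth muscle and actin genes tested, 2 were called higher and none lower (3.37% and 2.51% of all genes), with a median of 0.0816. They were calponin, CNN1, with 1463, 1417, 1368 and 1519 against 1062, 984, 736 and 1049 normalized counts (0.59 ± 0.15 log2), and smoothelin, SMTN, with 2719, 2676, 2462 and 2589 against 1956, 1923, 1686 and 2039 (0.46 ± 0.09 log2). Both were new in all 19 alternatives. The actin-binding TAGLN (0.17 ± 0.14) and TPM2 (0.09 ± 0.10) were not called.

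Promoters are shown for 2 of these contractile and pericyte genes that held the CArG box, the site of serum response factor, which is known to drive smooth muscle genes. It was in 2 of the 5 called contractile and smooth muscle genes for which a window was at hand (MYLK and SMTN), in 1 of 7 such named new rises (KCNK3), and in 1.29% of all windows. The 5 genes had 9 windows and the 7 genes had 12. The 1.29% is a share of single windows, so it is not the share to be met per gene. Other motifs were searched in these windows too. Of the 5 genes, 3 held GCGTG (36.5% of all windows), and 1 each held the NF-kB motif (SMTN) and TATAAA (MYLK). Sequences are RefSeq GRCh38.p14, the 150 bases before the start, 5′ to 3′ on the gene's strand, with the motif in capitals.
MYLK (chr3:123620549-123620698, minus strand): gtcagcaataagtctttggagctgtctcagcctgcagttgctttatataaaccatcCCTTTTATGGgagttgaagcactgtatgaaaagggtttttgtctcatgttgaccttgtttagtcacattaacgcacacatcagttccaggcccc
KCNK3 (chr2:26692572-26692721, plus strand): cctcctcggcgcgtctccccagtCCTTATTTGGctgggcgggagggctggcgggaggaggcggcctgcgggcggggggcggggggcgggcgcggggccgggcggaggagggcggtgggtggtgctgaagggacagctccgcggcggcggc
The capitals began 94 bases before the start in MYLK and 127 before it in KCNK3. The MYLK window lies inside the gene (chr3:123610049-123884332, hg38), near its 3′ end, at an internal start and not at that of the full-length kinase, and the counts, which are per gene, do not show which start was used.

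Pericyte and Notch genes overlapped this program. Of 14 tested, 6 were called higher and none lower (3.37% and 2.51% of all genes), although the median was -0.0476: beside NOTCH3, RGS5 and KCNK3, these were CSPG4, the NG2 proteoglycan of pericytes, with 719, 773, 648 and 649 against 414, 319, 277 and 359 normalized counts (1.03 ± 0.17 log2), and the ligands DLL1 and DLL4. The DLL4 call (0.62 ± 0.18) was lost without unstimulated replicates 3 (0.514) or 4 (0.584) and GSK-J4 replicates 21 (0.551) or 22 (0.509). Their target HES1 lay at -0.08 ± 0.17 and the ligand JAG1 at -0.23 ± 0.10, neither called. Other pericyte genes of the list did not rise: PDGFRB (-0.13 ± 0.10), MCAM (-0.08 ± 0.09) and ABCC9 (-0.03 ± 0.31) were not called.

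Among matrix genes, collagen calls were all rises. Of 22 tested, 9 were called higher and none lower (3.37% and 2.51% of all genes), with a median of 0.217, and GSK-J4 against vehicle called 7 higher, while vehicle against unstimulated called 2. The beaded filament chain COL6A2 had 63981, 74633, 68016 and 66270 normalized counts with GSK-J4 and 49766, 50575, 45223 and 51064 in unstimulated libraries (0.47 ± 0.05 log2, DESeq2 adjusted p = 1.99e-17), with vehicle at 47363 to 51079. COL4A5, a basement membrane chain, had 921, 841, 828 and 849 against 421, 436, 502 and 374 (0.99 ± 0.16 log2). The fibrillar chain COL1A1 (0.20 ± 0.08) was not called. Fibronectin, FN1, had 57942, 60231, 53229 and 56512 against 40926, 41339, 47061 and 46717 (0.37 ± 0.06 log2, DESeq2 adjusted p = 3.24e-08). COL6A2 and FN1 were new in all 19 alternatives and COL4A5 in 15. Of 24 elastic fibre and matricellular genes tested, 5 were called lower and 2 higher (2.51% and 3.37% of all genes), with a median of -0.0737. EFEMP1, fibulin-3, had 5581, 5956, 5536 and 5030 against 7556, 9633, 9191 and 9272 (-0.69 ± 0.13 log2) and THBS2, thrombospondin-2, 2412, 2250.5, 2348 and 2279 against 2963, 3478, 4689 and 4073 (-0.71 ± 0.14 log2). Both falls were kept changes, already called with vehicle (-0.44 ± 0.13 and -0.47 ± 0.14 log2), EFEMP1 in 11 and THBS2 in 5 of 19 alternatives. Periostin, POSTN, rose, at 76.3, 77.8, 76.2 and 81.8 against 39.6, 36.04, 27.5 and 23.4 (1.30 ± 0.23 log2). POSTN was called with neither vehicle (0.74 ± 0.24) nor against it (0.56). Against the same shares, of 16 metalloproteinases and TIMPs tested, MMP1 and MMP3 were higher and MMP11 lower (-0.38 ± 0.09), while the gelatinase MMP2 (0.06 ± 0.05) and the inhibitor TIMP1 (0.16 ± 0.12) were not called.

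Calls among genes of dividing cells were all rises. Of 15 proliferation genes, 5 were called higher and none lower (3.37% and 2.51% of all genes), with a median of 0.631, and all 15 had a positive sign. With vehicle the median was already 0.443 and 2 were called higher, and GSK-J4 against vehicle called 3 higher. MKI67, the Ki-67 antigen, had 51.9, 86.01, 38.6 and 72.3 normalized counts with GSK-J4, 19.04, 20.1, 21.4 and 32.3 with vehicle and 14.5, 11.01, 9.77 and 12.7 in unstimulated libraries (2.38 ± 0.39 log2, DESeq2 adjusted p = 1.39e-07). The GSK-J4 libraries varied the most but did not overlap either group. TOP2A, topoisomerase II alpha, had 132, 141, 97.5 and 149.9 against 55.97, 37.04, 32.8 and 46.9 (1.59 ± 0.22 log2), RRM2, a subunit of ribonucleotide reductase, 45.8, 78.8, 36.6 and 51.4 against 9.65, 11.01, 15.1 and 19.5 (1.94 ± 0.35 log2), and thymidylate synthase, TYMS, 260.4, 230.4, 265 and 297 against 164, 141, 144 and 147 (0.82 ± 0.11 log2). TYMS was new in all 19 alternatives and MKI67 in 12, although every vehicle library of MKI67 lay above every unstimulated one. TOP2A and RRM2 were kept changes, in 11 and 8 of 19 alternatives. CDK1 (0.24 ± 0.16) and PCNA (0.22 ± 0.09) were not called. Of 14 p53 targets and senescence genes, 3 were called higher and 2 lower, against the same shares. CDKN1A, the p21 cell cycle inhibitor, had 8393, 8180, 8605 and 7662 against 5902, 5683, 5317 and 5340.5 (0.56 ± 0.10 log2, DESeq2 adjusted p = 2.34e-06), and MDM2, the ligase that degrades p53, 2129.8, 2146, 2079 and 2217 against 1565, 1595, 1596 and 1494 (0.46 ± 0.04 log2, DESeq2 adjusted p = 7.48e-26). CDKN2A, which encodes p16, had 305, 245, 280.4 and 273 against 453, 390.4, 352 and 366 (-0.50 ± 0.10 log2), and CDKN2B, which encodes p15, a mean of 318 ± 30.1 (SD, n = 4) against 464 ± 78.1 (-0.54 ± 0.13 log2). CDKN1A and MDM2 were new in all 19 alternatives, CDKN2B in 11, and CDKN2A did not differ from vehicle by the test (-0.23 ± 0.10).

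Of 13 prostaglandin genes tested, 3 were called higher and 1 lower (3.37% and 2.51% of all genes), with a median of 0.296. PTGS2, the inducible cyclooxygenase, had 292, 276, 280.4 and 239 normalized counts with GSK-J4 and 119.7, 72.1, 66.6 and 53.7 in unstimulated libraries (1.80 ± 0.31 log2, DESeq2 adjusted p = 8.62e-07). All 4 were above vehicle, at 121 to 167, but that difference was not called (0.93 ± 0.30 log2, DESeq2 adjusted p = 0.0918). PTGFR, the receptor of prostaglandin F, had 50.9, 52.2, 60.96 and 46.1 against 11.6, 11.01, 17.8 and 19.5 (1.81 ± 0.29 log2) and was kept in all 19 alternatives. PTGDS, a prostaglandin D synthase, had 155, 224, 132 and 135 against 97.5, 87.1, 81.7 and 59.6 (0.99 ± 0.24 log2), while the E receptor PTGER4 fell as given above and PTGER2 (0.16 ± 0.09) was not called. PTGDS was new in only 7 of 19 alternatives.

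The counts of the next 5 lists stand against 5.88% of all genes called, 3.37% higher and 2.51% lower. Of 14 complement genes, 2 were higher and 1 lower: beside C3, the decay accelerator CD55 rose by 0.24 ± 0.06, and factor B, CFB, was not called (0.38 ± 0.19). CD55 was new in only 7 of 19 alternatives. Of 9 hyaluronan genes tested, 2 were higher: beside HAS3, TNFAIP6, which cross-links hyaluronan, had 18.3, 26.6, 20.3 and 14.7 against 4.83, 7.01, 7.1 and 3.91 (1.80 ± 0.46 log2). Of 16 kynurenine and aryl hydrocarbon receptor genes tested, 3 were higher and none lower. Beside KYNU, TDO2, a tryptophan dioxygenase, had 33.6, 23.6, 15.2 and 20.96 against 8.69, 10.01, 3.55 and 8.79 (1.60 ± 0.43 log2), a call lost without unstimulated replicate 3 (1.35) and without GSK-J4 replicate 21 (1.37). AHR lay at -0.07 ± 0.10, not called. Of 17 AP-1 and immediate early factors tested, 3 were higher. Beside ATF3 these were FOSL1, at 133, 181, 102 and 122 against 66.6, 93.1, 85.2 and 75.2 (0.75 ± 0.18 log2), and JUN (0.22 ± 0.06), whose call was lost without GSK-J4 replicate 23 (0.21), and FOS (0.50 ± 0.35) and EGR1 (0.16 ± 0.16) were not called. Of 16 amino acid stress genes, ATF5 was higher (0.67 ± 0.16, new in 18 of 19 alternatives) and VLDLR lower (-0.45 ± 0.11), and DDIT3 (0.07 ± 0.18) and ASNS (0.66 ± 0.36) were not called.

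TGF-beta and BMP genes had 4 of 24 called higher and 6 lower (3.37% and 2.51% of all genes), with a median of -0.107. Feedback inhibitors and targets were among the falls: SMAD6 had 819.8, 740.3, 897 and 770.4 against 1038, 1070.2, 1163 and 1215 normalized counts (-0.48 ± 0.10 log2), and ID2, a BMP target, 354, 301, 337 and 305 against 525, 456, 448 and 429.6 (-0.52 ± 0.12 log2). The ligand BMP2 was a rise (0.38 ± 0.11) whose call was lost without unstimulated replicate 4 (0.346). TGFB1 (-0.08 ± 0.06) and SMAD3 (-0.06 ± 0.10) were not called.

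In the remaining lists 1 to 4 members were called, again against 5.88% of all genes. Of 14 H3K27 methylation enzymes and subunits, 2 were lower, the Polycomb readers CBX7 (-0.30 ± 0.09) and CBX8 (-0.37 ± 0.11). Both calls were lost without single libraries: CBX7 without unstimulated replicates 2, 3 or 4 (-0.299, -0.281 and -0.246) and GSK-J4 replicates 21, 22 or 24 (-0.308, -0.268 and -0.294), and CBX8 without unstimulated replicates 2 (-0.361) or 4 (-0.351) and GSK-J4 replicates 21 (-0.312) or 22 (-0.328). The methyltransferase EZH2 lay at 0.07 ± 0.21. Of 24 HOX genes tested, 1 was called, and of 18 gut mesenchyme transcription factors 1, MEIS2 (0.25 ± 0.06), with GLI3 (0.31 ± 0.11) and TWIST1 (-0.12 ± 0.10) not called. Of 15 interferon response genes 2 were lower, led by the guanylate-binding protein GBP4 (312, 271, 244 and 234 against 295, 378, 550.4 and 511, -0.71 ± 0.16 log2), new in all 19 alternatives, while IFIT1 and MX1 were not called. Of 15 cholesterol genes 2 were called higher, HMGCS1 and SQLE, both enzymes of the synthesis pathway. Their calls were lost in 8 and 10 of 15 alternatives, among them those without unstimulated replicates 1, 2 or 4 and without GSK-J4 replicates 22, 23 or 24, where the log2 fold changes were 0.40 to 0.49 and 0.40 to 0.52. All 15 had a positive sign, with a median of 0.339, and in 13 the libraries of the groups did not overlap (12.3% of all genes). With vehicle the median was already 0.25, and GSK-J4 against vehicle called none of them. Of 14 hypoxia and glycolysis genes 2 were higher and 1 lower, with VEGFA at 0.37 ± 0.08, and of 12 NRF2 antioxidant genes 1 was higher, the sulfiredoxin SRXN1 (0.50 ± 0.08, new in all 19 alternatives), and 1 lower. Of 11 universal fibroblast genes tested, 3 were lower and 1 higher, DPP4 (0.26 ± 0.06).

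**Figure D4:**
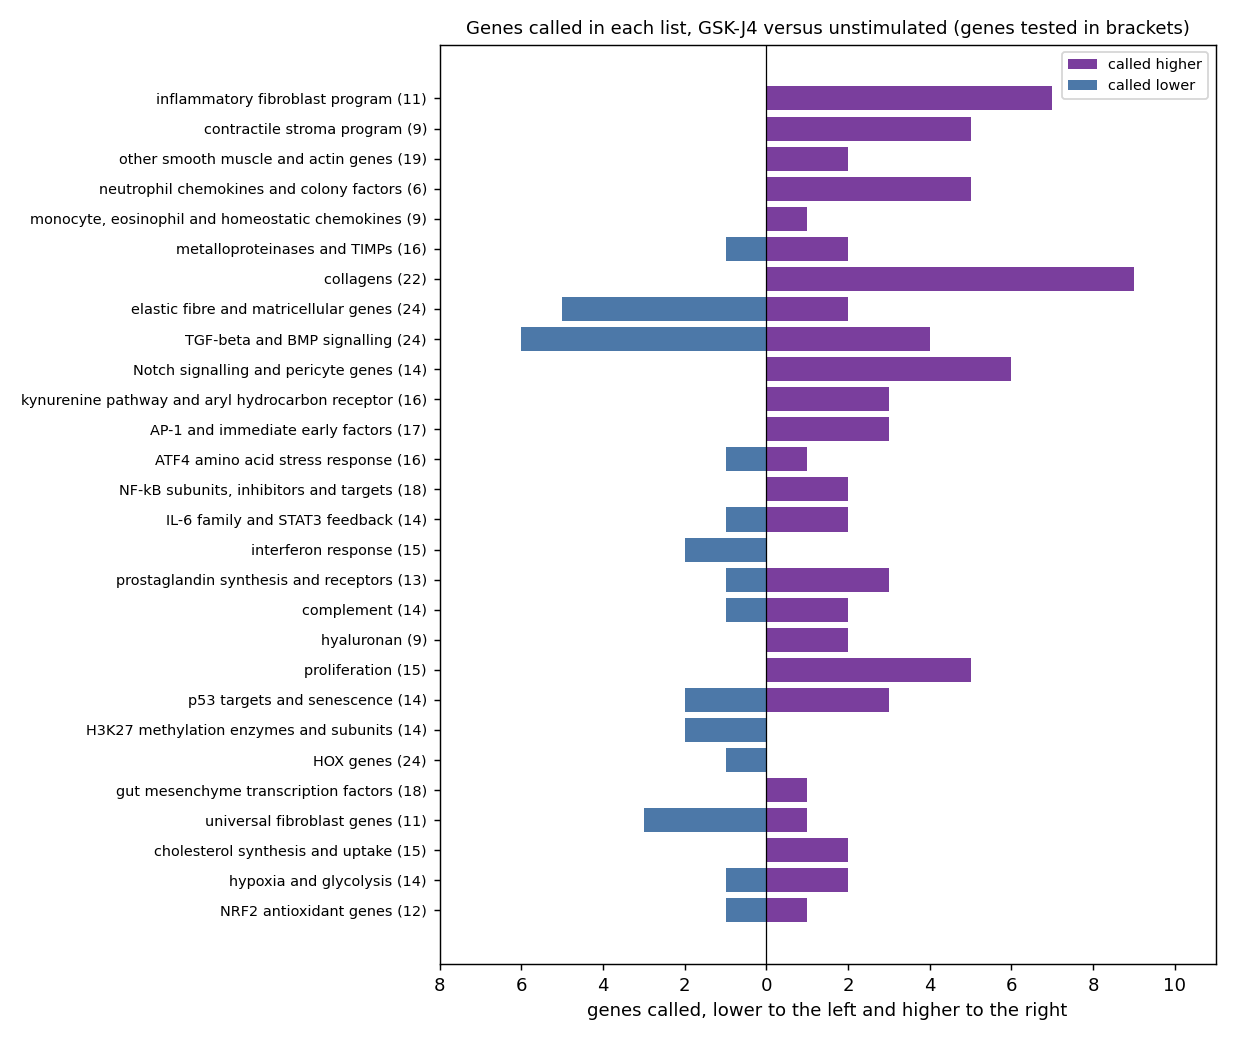
Number of genes called higher (purple, to the right) and lower (blue, to the left) between GSK-J4 and unstimulated libraries in 28 gene lists, with the number of genes tested in brackets. The inflammatory, contractile, chemokine, collagen, Notch and proliferation lists hold only rises, while the elastic fibre and TGF-beta lists hold more falls than rises.

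Few changes went back. Of the 11 lost changes, 8 were rises and 3 were falls with vehicle. ANK3, which encodes the membrane adaptor ankyrin-G, had 303, 343, 320.4 and 366 normalized counts with vehicle, 196, 187, 193 and 202 with GSK-J4 and 165, 189, 207 and 174 in unstimulated libraries. GSK-J4 and unstimulated libraries overlapped and both lay under every vehicle library (0.86 ± 0.12 log2 with vehicle, 0.08 ± 0.12 with GSK-J4, and -0.77 ± 0.12 between them, DESeq2 adjusted p = 1.21e-07). ADAMDEC1, a metalloprotease gene of gut fibroblasts and macrophages, had 129, 144, 125 and 129 with vehicle, 84.4, 81.9, 61.97 and 77.6 with GSK-J4 and 57.9, 79.1, 75.5 and 61.5 unstimulated. These 2 were lost in all 19 alternatives. FGL2, a fibrinogen-like protein, fell with vehicle to 1136, 757, 757 and 621, and was at 1242, 1392, 1470.1 and 1214 with GSK-J4 and 1749, 1577, 1495 and 1584 unstimulated. It was lost in 18 of 19 alternatives, and its GSK-J4 libraries still lay under all unstimulated ones without a call (-0.27 ± 0.15). The matricellular tenascin gene TNC was at 1696 to 2301 with vehicle, 3159 to 4087 with GSK-J4 and 2733 to 3896 unstimulated, a loss that held in 5 of 19. CST1 (14 of 19), PAPSS2 (14), PLPP3 (13), SLC14A1 (13), PCDH18 (8), COLEC12 (8) and LINC02982 (5) were the others. HSP90B1, an endoplasmic reticulum chaperone, was called higher with vehicle (0.12 ± 0.04) and lower with GSK-J4 (-0.11 ± 0.04), both small, and in only 2 of 19 alternatives.

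Symbols that name nuclear copies of mitochondrial genes were mostly lower. The list, chosen after the values were seen, holds 122 symbols with counts, and the table has none for the mitochondrial genome itself, so these rows may hold reads of mitochondrial transcripts. MTCO1P12 averaged 120460 normalized counts in unstimulated libraries, above COL1A1 at 99449. MTND5P6 and MTND5P7 had the same mean in unstimulated libraries (21.127) and the same with vehicle (21.203). Rows may thus share reads, and calls among them are not independent. Of 36 tested, 28 were called lower and none higher, with a median log2 fold change of -0.724, against 2.51% of all genes called lower. With vehicle 16 were lower (median -0.402), and against vehicle 9 were (median -0.31). As a share of all counts they took 2.16, 2.26, 1.94 and 2.07% in the unstimulated libraries, 1.63, 1.73, 1.51 and 1.53% with vehicle and 1.15, 1.55, 1.2 and 1.2% with GSK-J4. GSK-J4 replicate 22 overlapped the vehicle libraries and the other 3 lay under all of them. Without these symbols 373 genes remained in the 401 called lower. RNA quality was not given by sample, and its part in this difference was not tested.

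**Figure D5:**
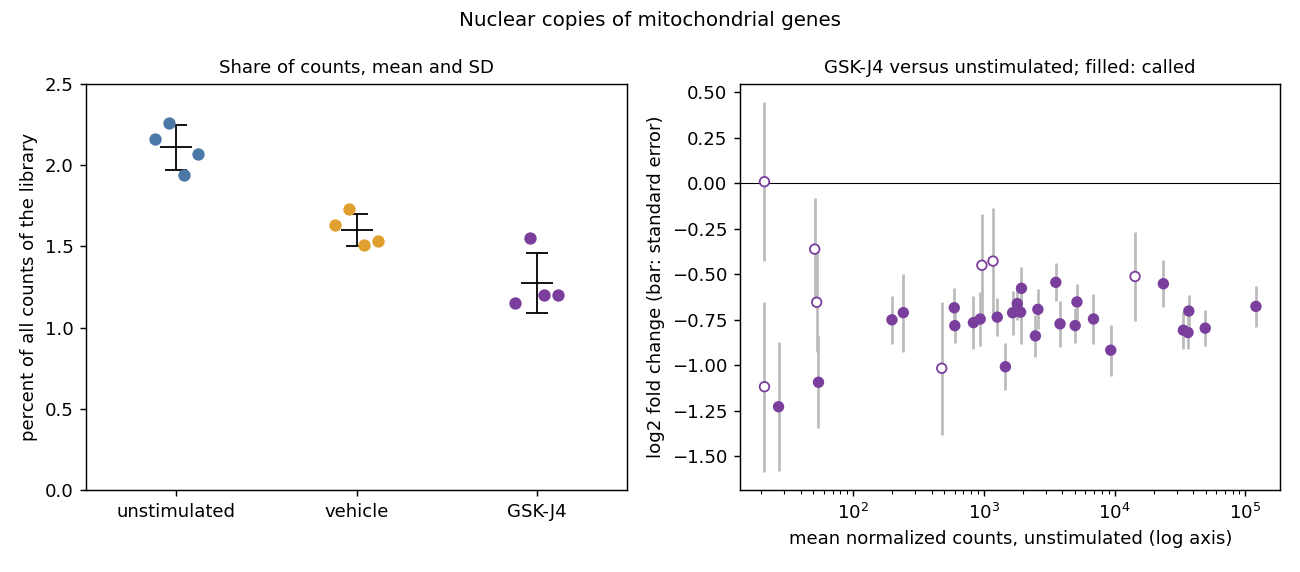
Left, share of all counts (percent, y axis) taken by symbols that name nuclear copies of mitochondrial genes in each library, with mean and SD, falling from 2.11 ± 0.138 (unstimulated) to 1.6 ± 0.0991 (vehicle) and 1.28 ± 0.185 (GSK-J4), n = 4 each. Right, log2 fold change with standard error of the 36 tested copies against their mean normalized counts in unstimulated libraries (x axis, log scale); filled points were called.

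The series also holds 4 libraries of pulsed cells given belinostat (250 nM by the labels), an inhibitor of histone deacetylases, in which 1419 genes (9.2%) were called against the same unstimulated libraries. Side by side with the GSK-J4 values above, the log2 fold changes with belinostat were 0.52 ± 0.22 for KYNU, 0.06 ± 0.37 for ATF3, 0.12 ± 0.22 for MYH11, -0.49 ± 0.13 for AOC3, -0.67 ± 0.05 for COL6A2 and 1.40 ± 0.19 for C3. For CPXM2, GCGR and TGFB2 they were 5.03 ± 0.23, 3.77 ± 0.30 and 1.66 ± 0.13. By the labels the compounds were given at different doses. The study's text names the same concentration of both for its secretion assay, and for belinostat gives that concentration, higher than the one in the labels, as its general one. The difference between the compounds was not tested.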

How the data were processed

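RNA-seq of Ccd18-Co cells was made with NEBNext Ultra II on a NextSeq500. The authors deposited estimated counts per gene from kallisto 0.48.0 (hg38, with FastQC 0.11.9 and MultiQC 1.14 also named). The transcriptome release and the summing to genes are not given in the sources used here. The counts were rounded to whole numbers and fitted in DESeq2 1.42.0 (R 4.3.3, Wald test, default filtering) over all 16 libraries with group as the only term. P-values were adjusted by Benjamini-Hochberg over all genes tested. Normalized counts are counts divided by DESeq2 size factors. Alternatives used edgeR 4.0.16 (quasi-likelihood), limma 3.58.1 (voom), sva 3.50.0 (2 surrogate variables), other filters and scaling, only the groups compared, and each library left out.

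Genes were named by size of change among called genes with at least 50 normalized counts and no overlap of libraries (12 rises and 12 falls, and the leading kept, new and lost changes), by membership of both programs, and as leading or defining members of the other lists. Members and lists were chosen with earlier results of these data known. In 15061 genes of simulated counts for the comparison of GSK-J4 with unstimulated, 50 genes at each fold size, DESeq2 recovered 36 at a log2 change of 0.5, 49 at 1 and 50 at 2, with 16 false calls (8%). The changed genes all averaged at least 50 normalized counts in the unstimulated libraries, so recovery at lower counts was not measured. Counts were drawn independently from the fitted dispersions, without outlying libraries or shifts shared between genes. Gene positions are from the GENCODE annotation of hg38, promoter windows from RefSeq GRCh38.p14, where 141 of 204 named genes had one.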

Additional observations from a re-analysis of the deposited data

Results flagged for a closer look

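In 178 groups of 4 libraries (each named gene in the GSK-J4 or unstimulated group, where tested), 9 had 1 library whose gap to the nearest other was larger, as a share of the range, than Dixon's 95% critical value for 4 samples, which chance exceeds in about 1 in 20 groups. ATF3 was at 155 normalized counts in GSK-J4 replicate 23, against 103 to 108 in the other 3. EPB41 was at 292 in GSK-J4 replicate 24 (others 152 to 161), CXCL2 at 45.1 in GSK-J4 replicate 22 (others 21.4 to 25.2) and LDLRAD4 at 166 in the same replicate (others 236 to 242). MME was at 706 in unstimulated replicate 1, against 357 to 408. 4 nuclear copies of mitochondrial genes stood high in GSK-J4 replicate 22: MTND1P23 at 6380 (others 4460 to 4500), MTND2P28 at 25300 (18600 to 19600), MTND4LP1 at 1420 (about 1050) and MTND4P12 at 27600 (20800 to 21700).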

How the results depend on the processing

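The 938 calls became 787 with edgeR (757 shared, 80.7% of the 938 and 96.2% of the 787), 778 with limma-voom, 790 without filtering, 966 with a count filter, 940 with TMM scaling, 1000 when the fit held no other groups, 1146 with 2 surrogate variables and 631 to 987 without single libraries. Kept changes (208) numbered 131 with edgeR, 130 with limma-voom, 342 with surrogate variables and 137 to 222 without single libraries, lowest without unstimulated replicate 2. New changes (154) numbered 69, 81 and, with only the groups compared, 241, and 89 to 178 without single libraries: 98 and 100 without vehicle replicates 14 and 15, 89 and 94 without GSK-J4 replicates 22 and 23. Lost changes (11) numbered 4, 5 and, with surrogate variables, 27, and 5 to 18 without single libraries: 18 without unstimulated replicate 3, 6 and 5 without vehicle replicates 15 and 16. The cause was not tested. Of 126 called genes that the naming rule gave, 101 were called in every alternative tried, 25 lost the call in at least 1, and none reversed. Every GSK-J4 library was shallower than every unstimulated one (at most 17472686 against at least 17521336 counts). At a simulated log2 change of 0.5, DESeq2 recovered 36 of 50 genes, all with at least 50 normalized counts in unstimulated libraries. No paired analysis was possible because the groups share no replicate numbers.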
